A study of Drosophila melanogaster with 10 samples.

Results

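G2, G4 and G6 are G elements, a family of LINEs (long interspersed elements) of the Jockey group in Drosophila melanogaster. They were taken from the deposited piRNA coverage tables by their consensus names, on both strands and in all 10 libraries, and are 3 of the 122 elements of the tables. Their consensus sequences are 3102 nt (G2), 3856 nt (G4) and 2042 nt (G6) long and together cover 9000 of 610009 positions. The small RNAs come from OSCs, a cultured line of Drosophila ovarian somatic cells, and were purified bound to Argonaute proteins. Of the libraries, 3 were from cells given an siRNA that targets luciferase as control (siLuc) and 3 from cells given one that targets armitage (siArmi), both in wild-type OSCs with a repeated transfection at 48 h and harvest at 96 h. The other 4 were from a clonal OSC line that was homozygous for a UAS array ahead of the flamenco promoter and was transfected repeatedly. In that line 2 libraries came from cells given the DNA-binding protein Gal4 alone and 2 from cells given Gal4 fused to the intrinsically disordered region (IDR) of Panoramix (Panx-IDR), harvested at day 6 and day 7. Panx-IDR cells were gated by FACS for low reporter signal. For Gal4 cells the sources differ, since the methods and the treatment label name no enrichment and the description label calls these cells sorted. If they were not gated, the gate and the fusion protein cannot be told apart. The labels name no day for either Gal4 library.

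LINEs move by reverse transcription of their own RNA at the site of insertion and have no long terminal repeats, and their genomic copies are often truncated at the 5′ end. In ovarian somatic cells the nuclear Argonaute protein Piwi is guided by piRNAs, small RNAs that are processed from long precursor transcripts of piRNA clusters. A piRNA that is antisense to a transposon can recognise its transcript, while a sense piRNA has the sequence of the transcript itself. flamenco is a cluster of transposon fragments on the X chromosome that is known as the main source of antisense piRNAs in these cells. Armitage (Armi) is an RNA helicase needed to make piRNAs, and Panoramix is a protein through which Piwi silences transcription.

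Values are the mean coverage per nt of an element on 1 strand, per 1000000 miRNA reads. The step between values gave the depth of each library in miRNA reads, which was 1297626 to 1799370 in siLuc, 586560 to 875165 in siArmi, 87066 to 110492 in Gal4 and 117444 to 151205 in Panx-IDR. Replicates differed by more than sampling noise and each counted as a sample. Antisense coverage over all elements averaged 612.1 ± 109 (SD, n = 3) in siLuc and 29.8 ± 2.16 (n = 3) in siArmi. It averaged 935.3 ± 108 (n = 2) in Gal4 and 555.1 ± 52.5 (n = 2) in Panx-IDR. The libraries of the tethering line had another 3′ adaptor than the siRNA libraries, and levels were compared only within each experiment. Only transposon coverage was read here, so the cell type was not checked against its marker genes.

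G6 was the member with by far the most piRNAs. Its antisense coverage was 643, 611 and 437 in the siLuc libraries, a mean of 563.7 ± 111 (SD, n = 3), which put it at position 26 of the 122 elements. G4 had an antisense coverage of 15.7, 15.5 and 11.2 (14.2 ± 2.56, position 57). G2 had 11.98, 12.53 and 9.06 (11.2 ± 1.86, position 61). The ranges of G4 and G2 overlapped, while every G6 library lay far above both. Neighbours in this order did not separate either. ZAM, an LTR retrotransposon just above G6, had 568.4 ± 116 (n = 3), and baggins, a LINE just below it, had 459.1 ± 70.5, with overlapping ranges.

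**Figure D1:**
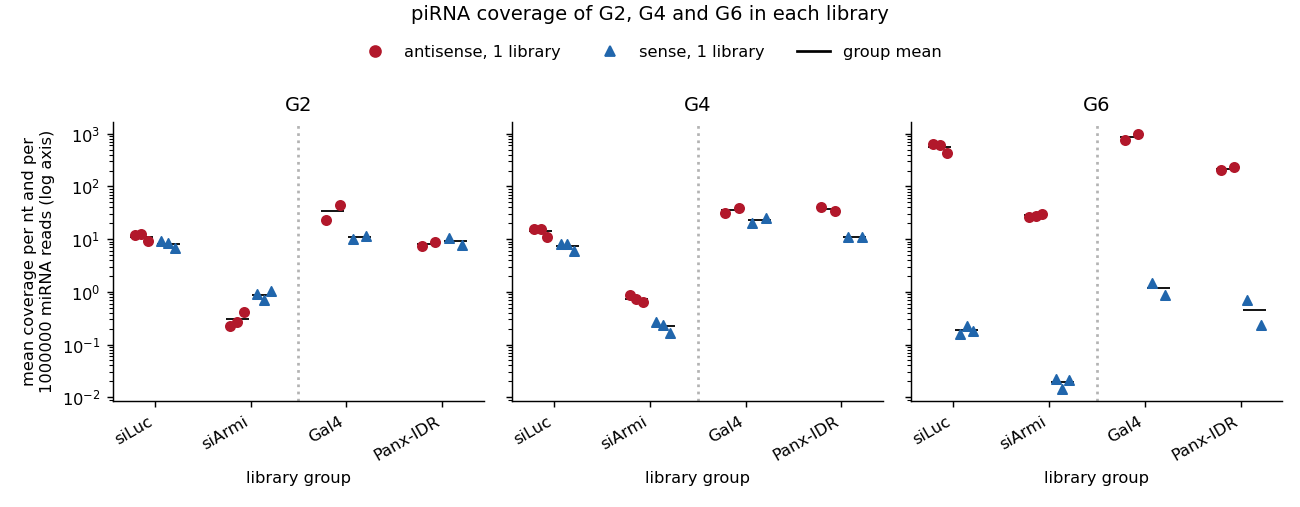
Mean coverage per nt and per 1000000 miRNA reads (log axis) of G2, G4 and G6 in each of the 10 libraries, with circles for antisense, triangles for sense and a line at the mean of each group. The dotted line parts the siRNA libraries from the tethering libraries, and G6 stands out by an antisense coverage of 437 to 643 in siLuc with sense coverage below 1.

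The members differed in strand. In siLuc cells 57.8% ± 1.95 (SD, n = 3) of the coverage of G2 was antisense, against 65.6% ± 0.510 for G4 and 99.97% ± 0.00902 for G6. The sense coverage was 9.19, 8.32 and 6.87 for G2, 8.22, 7.96 and 6.01 for G4, and 0.159, 0.229 and 0.184 for G6. G2 and G4 thus had sense piRNAs within a few fold of their antisense piRNAs, and G6 had almost none, with 13 to 29 sense reads in a library against at least 45907 antisense reads. The test of the log2 strand ratio, antisense over sense, with a pseudocount of 1 called all 3 members as antisense-biased, where 67.1% of the 79 elements tested were called in this direction. The log2 ratios were 0.41 (SE 0.05) for G2, 0.85 (SE 0.05) for G4 and 8.87 (SE 0.13) for G6, with limma adjusted p of 7.9e-16, 1.2e-39 and 5.7e-120, and the median of the elements tested was 2.85. G2 and G4 lay below that median and G6 above it. The size of the G6 ratio rests on the pseudocount, which exceeds its sense coverage, and was 10.9 with a pseudocount of 0.1 and 5.80 with 10. These p-values are small because limma put infinite prior degrees of freedom on the spread, so that each element was tested against the spread shared over elements and not against its own 3 libraries. A test of 3 libraries against 3 on 1 element alone could not give an exact p below 0.1, and for 2 against 2 the limit is 0.333.

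The remaining G elements of the tables had still fewer piRNAs. The antisense coverage in siLuc was 4.66 ± 0.896 (SD, n = 3) for G5A, 3.77 ± 0.690 for G5, 2.08 ± 0.438 for G3, 0.470 ± 0.0844 for the G-element and 0.0937 ± 0.0513 for G7. All 5 lay below every library of G2 and G4. Their antisense share was 42.2% to 67.8%, against 99.97% for G6. Among 29 other LINEs of a list by name, which includes these 5, 14 passed the filter on a mean coverage of 10, of which 12 were biased to antisense and 2 to sense, beside 67.1% and 31.6% of all 79 elements. The sense-biased LINEs were BS, with a log2 ratio of -3.80, and Cr1a, with -2.86.

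The siLuc profile of G2 was a ramp with opposite slopes on its strands. The antisense coverage in siLuc was 3.43 ± 0.556 (SD, n = 3) in the 5′ part of the consensus (nt 1 to 1034, of 3 equal parts), 11.4 ± 1.81 in the middle part and 18.7 ± 3.31 in the 3′ part (nt 2069 to 3102). The sense coverage there was 13.3 ± 2.14, 5.92 ± 1.06 and 5.11 ± 0.332. The antisense share therefore went from 20.5% ± 2.47 in the 5′ part to 66.0% ± 1.71 and 78.3% ± 2.14, and G2 as a whole was nearly balanced although no part of it was. The 3′ part had 5.14 to 6.05 times the antisense coverage of the 5′ part in each siLuc library, and 5.23 and 7.74 times in the Gal4 libraries. Across 32 windows of 100 nt the strands of the mean siLuc profile had a Pearson correlation of -0.622 (Spearman -0.789), a description of windows that share libraries. The slope of the antisense strand was found in both lines. Sense coverage in Gal4 was 13.7 ± 2.44 (SD, n = 2), 7.16 ± 0.612 and 11.7 ± 0.390 in the 3 parts. It thus fell from the 5′ to the middle part as in siLuc, but not on to the 3′ part. The 3′ part had 0.387 ± 0.0385 (SD, n = 3) times the sense coverage of the 5′ part in siLuc, but 0.737 and 0.995 times in Gal4 and 1.65 ± 0.249 (n = 2) times in Panx-IDR. The correlation of the strands was -0.0719 in Gal4 and 0.0345 in Panx-IDR. The sense profile also had a narrow peak at the 3′ end, where nt 3001 to 3102, 3.29% of the positions, held 8.58% ± 1.44 of the sense signal with 20.9 ± 0.999 per nt in siLuc. The peak had 52.1 ± 11.5 per nt (n = 2) in Gal4 and 51.3 ± 25.2 (n = 2) in Panx-IDR. This raises the ratio of the 3′ to the 5′ part in those libraries. The parts and this end were chosen after the profiles were seen and were given no test.

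**Figure D2:**
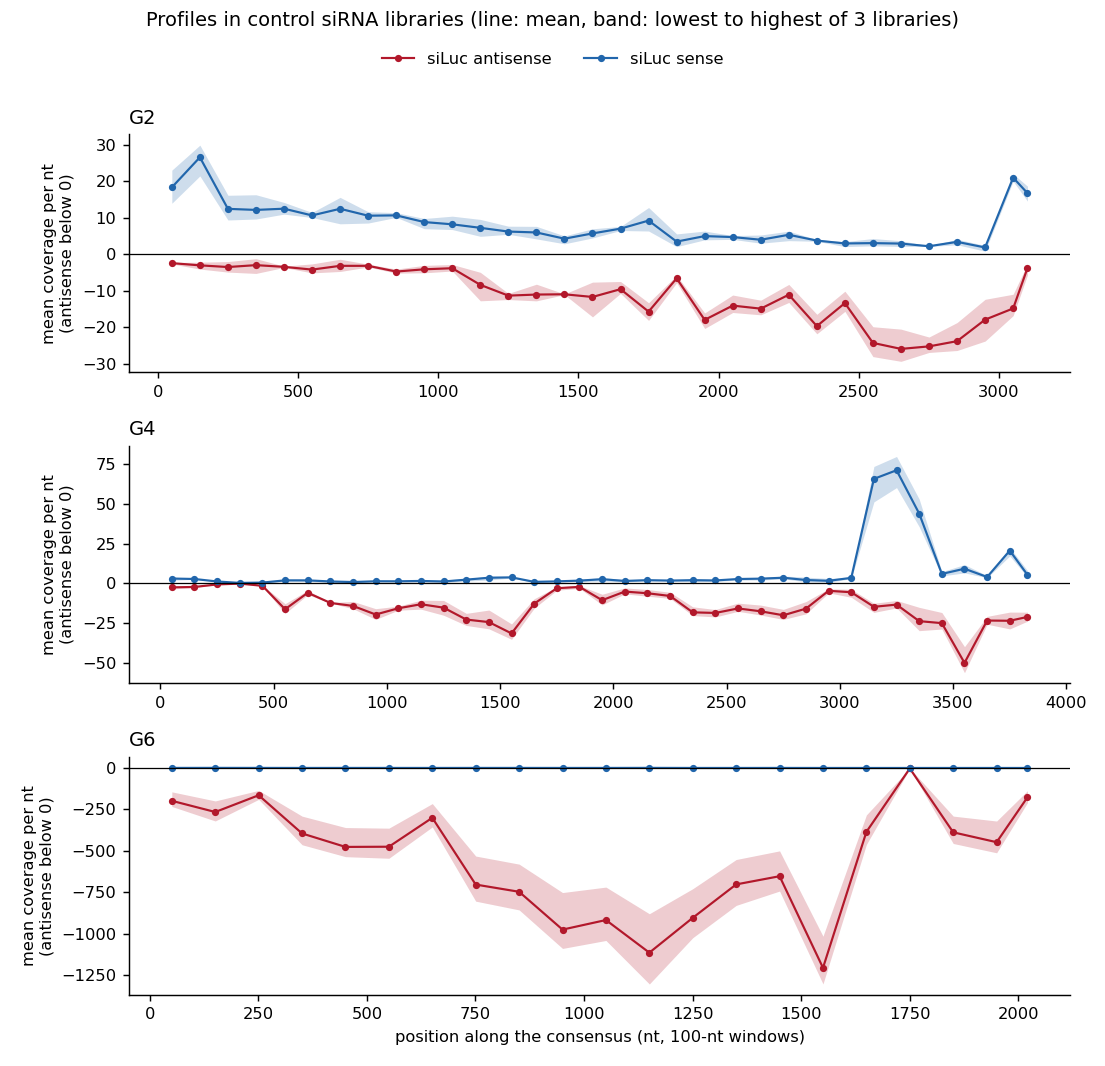
Mean coverage in windows of 100 nt along each consensus in the siLuc libraries, sense above 0 and antisense below it, with a line for the mean and a band from the lowest to the highest of the 3 libraries. G2 has opposite slopes on its strands, G4 a sense block at nt 3101 to 3400, and G6 a gap in antisense coverage at nt 1649 to 1836.

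G4 had a block of sense piRNAs near its 3′ end. In nt 3101 to 3400, 7.78% of its positions, the sense coverage was 65.4, 66.2 and 49.0 in the siLuc libraries, while it was 3.39, 3.05 and 2.38 over the other positions. The block held 63.4% ± 1.37 (SD, n = 3) of the sense signal of G4 but only 9.41% ± 0.681 of its antisense signal. A second and smaller sense peak lay at nt 3701 to 3800, with 20.6 ± 2.90 per nt. Outside these stretches G4 was mostly antisense, at 85.9% ± 0.739 in its 5′ part and 86.3% ± 1.76 in its middle part against 51.2% ± 0.591 in its 3′ part. Its antisense profile had its highest window at nt 3501 to 3600 (49.9 ± 8.86) and a stretch of 232 nt at nt 230 to 461 that was nearly empty, with 0.228 ± 0.0483 per nt. The same stretch had 0.504 ± 0.0904 per nt on the sense strand.

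G6 was covered along nearly its whole length on the antisense strand, with 1 gap. Its 3 siLuc profiles had Pearson correlations of 0.995 with each other across 21 windows. Coverage was highest in the window at nt 1501 to 1600, at 1304, 1302 and 1016, and the highest single position was nt 1525 with 2155 ± 220 (SD, n = 3). From nt 1649 to 1836, a run of 188 nt, coverage lay below 10% of the element mean at every position in all 3 siLuc libraries. The mean there was 3.57 ± 0.847 in siLuc, 4.78 ± 3.73 (n = 2) in Gal4 and 3.48 ± 0.647 (n = 2) in Panx-IDR, so that the gap was present in wild-type OSCs and in the tethering line. Positions below 10% of the mean made up 10.4% ± 0.123 of G6, 13.8% ± 0.902 of G4 and 5.16% ± 0.782 of G2 in siLuc. For G2 and G4 these shares depend on depth, and in Gal4 23.8% and 25.1% of their positions had no antisense coverage at all, against 6.66% for G6.

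The shape of the antisense profiles was shared between the cell lines. The Pearson correlation of the mean siLuc with the mean Gal4 profile was 0.90 for G2 (32 windows), 0.890 for G4 (39 windows) and 0.938 for G6 (21 windows). The windows of 1 element come from the same libraries and consensus, so these values are descriptions. On the sense strand the same correlation was 0.985 for G4 (Spearman 0.727), 0.714 for G2 and 0.292 for G6 with its few reads. In G4 the sense block held 68.8% ± 5.56 (SD, n = 2) of the sense signal in Gal4.

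Depletion of Armi asks how far the piRNAs of an element depend on the biogenesis pathway. All 3 members lost most of their antisense coverage. G6 had 26.7, 27.8 and 29.9 in the siArmi libraries, 4.99% of the siLuc mean. G4 had 0.877, 0.715 and 0.647 (5.27% left) and G2 had 0.228, 0.267 and 0.422 (2.73% left). In each member the highest siArmi library lay more than 10 times below the lowest siLuc library. The G6 change was -4.26 on the log2(value + 1) scale (SE 0.20, limma adjusted p 2.5e-54), beside a median of -4.30 over the 50 elements tested, of which 100% were lower. In bulk libraries fewer cells with piRNAs and fewer piRNAs per cell cannot be told apart. G2 and G4 did not pass the filter and were read from the fit without it, where they were also called lower with log2 changes of -3.21 (SE 0.19) and -3.10 (SE 0.20), limma adjusted p 2.7e-51 and 1.4e-43, and where 99.2% of 121 elements were lower. The pseudocount of 1 is larger than the siArmi values of G2 and G4, so these 2 changes understate the ratios. A total of 58 antisense reads at least lay behind the 3 siArmi values of G2 and 175 behind those of G4.

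The loss is relative to miRNAs and was shared by the elements. Scaled to total transposon coverage, which moved the median change of antisense elements by 4.26 to -0.04, 22 elements were lower and 10 higher in place of 50 and 0. This total is the sum of the mean coverage per nt of all elements on both strands. A short element weighs as much in it as a long one. On that scale the change of G6 was 0.08 (limma adjusted p 0.397) and that of G4 was 0.14 (adjusted p 0.281). Relative to the other elements neither of them was called. G2 remained lower, at -0.73 (adjusted p 0.0353), so that its antisense piRNAs fell further than the transposon total. Of the other LINEs, 11 of 11 that passed the filter fell, with a median of -4.34, led by Doc with -4.88 and the F-element with -4.77.

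The sense coverage fell too, but to different degrees. For G2 it was 0.916, 0.702 and 1.03 in siArmi, 10.9% of the siLuc mean, and for G4 it was 0.273, 0.234 and 0.167, which is 3.04% of the mean. Both passed the test, at -2.27 (SE 0.17) and -2.77 (SE 0.17) without a filter, limma adjusted p 9.0e-35 and 9.8e-47, and 98.3% of 121 elements fell. Relative to the transposon total G2 turned to 1.07 (limma adjusted p 0.0011), so that its sense piRNAs fell less than the total, and G4 remained lower at -0.55 (adjusted p 0.0207). G6 had at most 2 sense reads in any siArmi library, which is too few for a ratio.

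The strand balance of G2 turned over in siArmi. Its antisense share was 19.9%, 27.5% and 29.2% in siArmi, a mean of 25.5% ± 4.95 (SD, n = 3), against 56.6% to 60.1% in siLuc. The log2 ratio of its strands changed by -0.94 (SE 0.08, limma adjusted p 2.0e-10), in a fit without filter where 60.3% of 121 elements were called lower and 29.8% higher. The antisense share of G2 was lower in siArmi in each of its 3 parts, at 11% ± 6.2, 29.7% ± 7.23 and 47.2% ± 8.77. G4 moved the other way in share, from 65.6% ± 0.510 to 77.0% ± 2.18 (76.3%, 75.3% and 79.5% in siArmi). Its log2 ratio gave -0.34 (limma adjusted p 0.00021) with a pseudocount of 1 and 0.46 (adjusted p 0.0093) with 0.1, so that the sign of the test rests on the pseudocount for G4. For G6 the antisense share was 99.93% ± 0.0163 in siArmi against 99.97% ± 0.00902 in siLuc, a difference that rests on very few sense reads. Its log2 ratio was called lower, at -4.04 (limma adjusted p 5.5e-12) and at -3.03 with a pseudocount of 0.1, but with at most 2 sense reads in a siArmi library both values rest on the pseudocount.

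The Armi loss was found in every window that could be tested. All 20 tested windows of G6, 11 of G4 and 5 of G2 were lower on the antisense strand, where 100% of the 2701 windows tested were lower. The coverage left in a window was 3.44% to 6.37% in G6, 2.78% to 7.68% in G4 and 0.502% to 3.03% in G2, whose 5 windows all lay in nt 2301 to 2900. By parts, G2 had 5.11%, 2.50% and 2.44% of its antisense coverage left from 5′ to 3′. The highest window of G6, nt 1501 to 1600, had 50.3 ± 8.75 (SD, n = 3) in siArmi against 1207 ± 166 in siLuc. The largest decrease in G6 lay at nt 1801 to 1900, from 388.8 ± 86.8 to 13.4 ± 2.67.

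Tethering of Panx-IDR upstream of flamenco asks which piRNAs depend on transcription of this cluster, and here the members parted. G6 and G2 lost about the same fraction of antisense coverage, and G4 kept its own. G6 had 766 and 976 in the Gal4 libraries and 203 and 230 in the Panx-IDR libraries of day 6 and day 7, which leaves 24.8% of the Gal4 mean. G2 had 23.0 and 44.9 in Gal4 and 7.33 and 8.96 in Panx-IDR, which leaves 24%. G4 had 31.3 and 39.2 in Gal4 and 41.2 and 34.4 in Panx-IDR, or 107% of the mean. The groups did not overlap for G6 and G2, and those of G4 did. Groups that did not overlap, with Panx-IDR lower, were found in 74% of the 73 elements tested.

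The change of G6 was -2.0 (SE 0.22, limma adjusted p 1.9e-14) and that of G2 was -1.87 (SE 0.23, adjusted p 2.6e-12), both called lower, as were 53.4% of the 73 elements, while 8.22% were called higher. G4 was not called, at 0.10 (95% interval -0.27 to 0.47, limma adjusted p 0.635), where the median of all elements was -0.57. The interval of G4 does not reach the changes of G2 and G6, but its width rests on the spread shared over elements and not on G4 alone. The difference between the members themselves was given no test of its own. G2 passed the filter only through its Gal4 coverage, as its Panx-IDR mean of 8.15 lay below it, which favours a decrease. In the fit without filter G2 was called lower as well (limma adjusted p 0.00022), where 33.9% of 121 elements were lower. The Gal4 libraries of G2 differed by 1.95 times, more than the 1.18 times of all elements together. Without the higher of them the G2 change was -1.40 and without the lower it was -2.33, with a limma adjusted p of at most 0.0053 over the 4 libraries left out in turn. With the median over positions in place of the mean it was -2.76 and was not called (adjusted p 0.228).

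Total transposon coverage itself was lower in Panx-IDR relative to miRNAs. Scaling to it moved the median change by 0.70, and the elements then split into 33 lower and 31 higher in place of 39 and 6. On that scale G4 was called higher, at 0.80 (limma adjusted p 1.9e-05), and with median-ratio scaling at 0.72 (adjusted p 2.0e-05). Whether the G4 antisense piRNAs are read as level or as raised therefore depends on the scale, whereas G2 and G6 remained lower with either scaling, at -1.15 and -1.26 relative to the total.

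**Figure D3:**
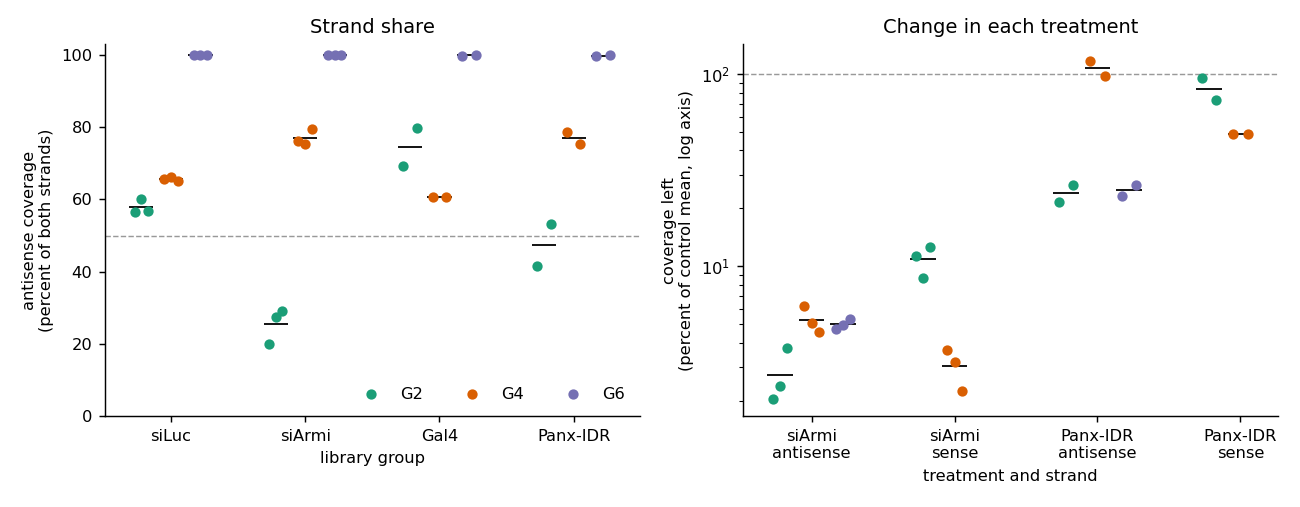
Left, antisense coverage as a percent of both strands for G2, G4 and G6 in each library, with a line at each group mean and a dashed line at equal strands. Right, the coverage left in each treated library as a percent of the control mean (log axis) by treatment and strand, where G4 antisense coverage is near 100% on flamenco silencing and G2 and G6 are near 24% and 25% (G6 sense coverage is left out for its few reads).

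On the sense strand it was G4 that changed. Its sense coverage was 20.3 and 25.4 in Gal4 and 11.1 and 11.2 in Panx-IDR, 48.8% of the Gal4 mean, at -0.97 on the log2 scale (SE 0.17, limma adjusted p 3.3e-07). The groups did not overlap, as in 57.4% of the 54 elements tested with Panx-IDR lower, and 35.2% of them were called lower. G2 had a sense coverage of 10.2 and 11.5 in Gal4 and of 10.3 and 7.90 in Panx-IDR, with overlapping groups, at -0.24 (95% interval -0.66 to 0.18, limma adjusted p 0.383) in the fit without filter, where 19.2% of 120 elements were called lower. Relative to the transposon total the sense change of G4 was -0.27 (limma adjusted p 0.0702) and was not called, and with median-ratio scaling it was -0.76 (adjusted p 0.0017). With the median over positions it was 1.46 (adjusted p 0.502). G6 had 5 to 11 sense reads in a Gal4 library and 1 to 9 in a Panx-IDR library. Its call as lower in the fit without filter (-0.57, limma adjusted p 0.0107) was lost when any of 3 of the 4 libraries was left out, and its sense strand is not read further.

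The sense loss of G4 lay in its 2 sense peaks. In nt 3101 to 3400 the sense coverage was 170 and 238 in Gal4 and 52.7 and 64.4 in Panx-IDR, 28.7% of the Gal4 mean. Over the other positions it was 7.75 and 7.52 against 7.62 and 6.71, or 93.9%, which mixes falls and rises. These positions include the peak at nt 3701 to 3800, where coverage went from 114 to 44.0 (38.4% left). The 5′ and middle parts of G4, which hold neither peak, had 110% and 128% of their Gal4 sense coverage. At nt 3501 to 3600 it went from 13.3 to 29.3, a rise that was not called. Of 8 sense windows of G4 that were tested, 4 were lower and none was higher, where 17.4% of all 2088 windows were lower. The 4 were the 3 windows of the block, with log2 changes of -1.60, -1.91 and -1.80 (limma adjusted p 0.0013, 0.00059 and 0.0031), and nt 3701 to 3800 with -1.37 (adjusted p 0.0059). Antisense coverage over the block was 36.0 and 29.8 in Gal4 and 32.1 and 30.9 in Panx-IDR, so that 95.7% was left on the opposite strand of the same stretch. Of 9 sense windows of G2 that were tested, nt 101 to 200 was lower, at -1.88 (limma adjusted p 0.0274). With 26.9 in Gal4 and 6.37 in Panx-IDR, this window passed the filter only through its Gal4 coverage, which favours a decrease.

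The antisense change was spread along G2 and G6. In G6 all 20 tested windows were lower, and the coverage left ran from 19.5% at nt 1401 to 1500 to 34.6% at nt 2001 to 2042. In G2, 15 of 23 tested windows were lower, from 4.92% left at nt 2101 to 2200 to 54.5%, and none was higher. Many of these windows passed the filter through their Gal4 coverage alone, which favours a decrease. Of the windows of all elements, 51.8% were called lower. Without the higher Gal4 library 34.8% of the tested windows of G2 were lower in place of 65.2%. The 3 parts of G2 kept 26.3%, 30.01% and 20.5% of their antisense coverage. In G4, 1 of 30 tested windows was called, nt 2201 to 2300, with 29.7 and 16.9 in Gal4 and 5.22 and 4.51 in Panx-IDR (log2 change -2.0, limma adjusted p 0.0352), and this call was lost when any of 3 of the 4 libraries was left out. The 3 parts of G4 kept 108%, 107% and 107%.

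**Figure D4:**
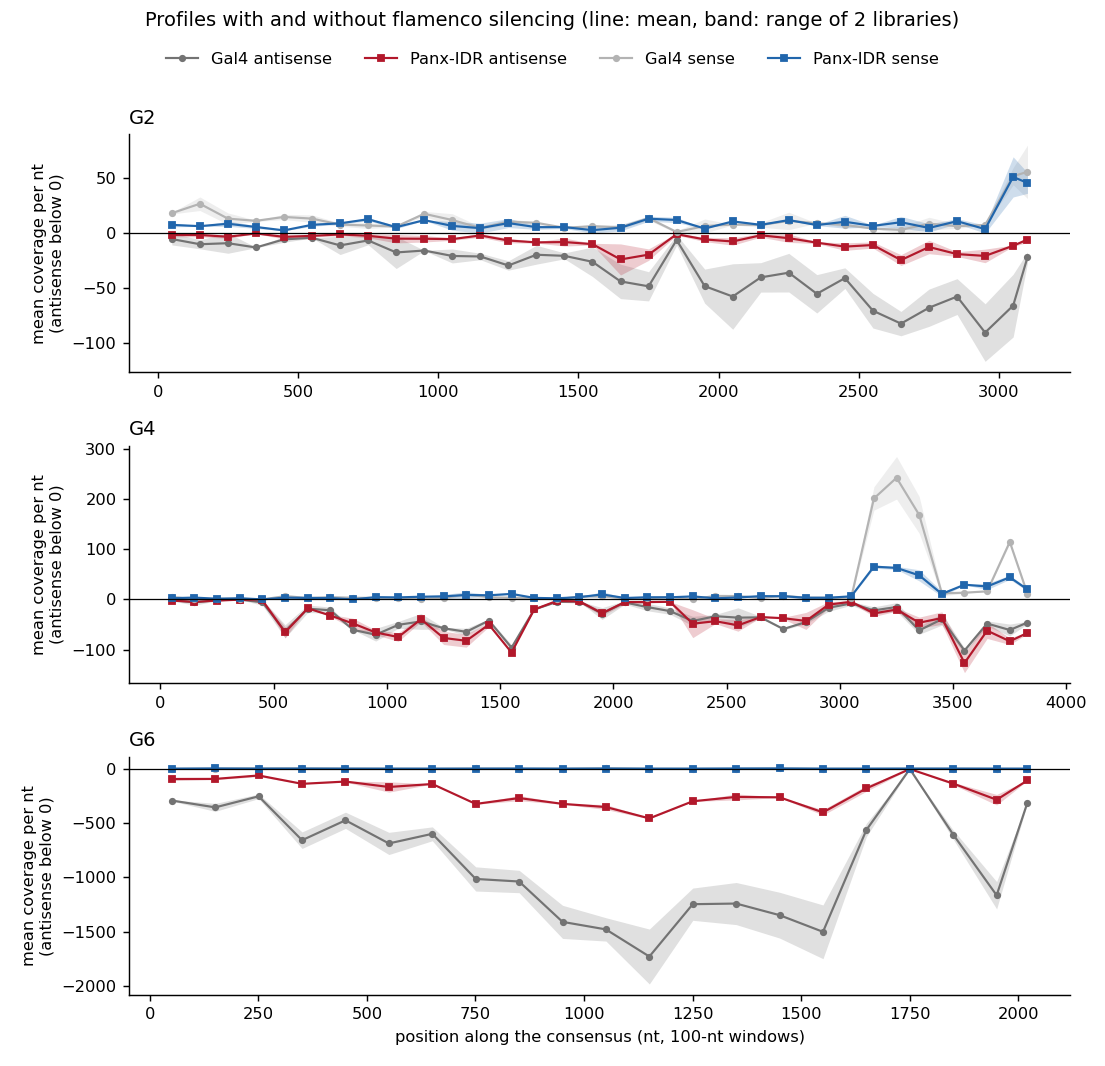
Mean coverage in windows of 100 nt along each consensus in the Gal4 and Panx-IDR libraries, sense above 0 and antisense below it, with lines for means and bands for the range of the 2 libraries. Antisense coverage is lower along G2 and G6 and at 107% of the Gal4 mean in G4, whose sense block at nt 3101 to 3400 fell to 28.7%.

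The strand balance moved in opposite directions. The antisense share of G2 was 69.2% and 79.6% in Gal4 and 41.6% and 53.1% in Panx-IDR, and that of G4 was 60.60% and 60.66% in Gal4 and 78.7% and 75.4% in Panx-IDR. The log2 strand ratio changed by -1.63 in G2 (SE 0.26, limma adjusted p 1.6e-08), a direction called in 42.9% of the 84 elements tested, and by 1.07 in G4 (SE 0.26, adjusted p 0.00016), a direction called in 16.7% of them. With the median over positions neither was called, at -2.56 in G2 (adjusted p 0.184) and -1.61 in G4 (adjusted p 0.464). Here too G2 passed the filter only through its Gal4 antisense coverage, which favours a lower ratio. G6 kept an antisense share of 99.78% ± 0.166 (SD, n = 2) against 99.86% ± 0.0723. Its log2 ratio changed by -1.42 with a pseudocount of 1 and by -0.73 (limma adjusted p 0.0858) with 0.1.

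Relative to miRNAs, flamenco silencing left more antisense coverage than Armi depletion did in each member. The difference of the 2 changes, each against its own controls, was 2.26 on the log2 scale for G6 (SE 0.29, limma adjusted p 8.5e-14), where 100% of the 50 elements tested differed in this direction. Without a filter it was 3.20 for G4 (SE 0.30, adjusted p 2.8e-12) and 1.35 for G2 (SE 0.33, adjusted p 0.00024), where 95% of 121 elements differed in this direction. The value of G2 turned to -0.20 with a pseudocount of 10. Scaled to total transposon coverage, which takes out the loss that the elements share, the difference turned to -1.35 in G6 (adjusted p 1.3e-09) and -0.42 in G2 (adjusted p 0.297), and with median-ratio scaling to -1.01 (adjusted p 8.1e-09) and -0.97 (adjusted p 0.0188). In G4 it remained positive, at 0.67 with the total (limma adjusted p 0.0078) and 0.37 with the median ratio (adjusted p 0.0377). The coverage left was 24.8% against 4.99% in G6, 24% against 2.73% in G2 and 107% against 5.27% in G4. The cell line, adaptor and time of harvest differ between the experiments, and their part in these differences was not tested.

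Of 14 other LINEs that passed the filter on flamenco silencing, 7 were lower and 1 was higher, beside 53.4% and 8.22% of all elements, with a median of -0.72. Those named by size are baggins with -1.76, jockey2 with -1.49 and, as the one that was higher, G5 with 0.79 (limma adjusted p 0.0111). G5 rose from a mean of 7.15 in Gal4 to 13.1 in Panx-IDR in antisense coverage. Of the G elements that passed the filter G2 and G6 fell, G5 rose, and G4 was not called. G5 passed only through its Panx-IDR coverage, as its Gal4 mean lay below the filter, which favours a rise. G2 passed only through its Gal4 coverage, which favours a decrease. In the fit without filter all 5 other G elements were tested. There G5 was called higher (limma adjusted p 0.0184) and none was called lower. On the sense strand 3 of 7 other LINEs were lower and 3 were higher, beside 35.2% and 25.9% of all elements, led by BS with -1.94 and Doc with -1.23, and by I-element_new with 0.77 and Juan with 0.70.

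Each member had its own set of elements with a similar course over the 10 libraries. By the Pearson correlation of log2(antisense coverage + 1) with the 64 other elements of a mean of at least 10, the nearest to G6 were gypsy10_new, HMS-Beagle2 and springer (0.9992, 0.9991 and 0.9986). The nearest to G2 were accord, Dm88 and Ivk (0.995, 0.991 and 0.988), and the nearest to G4 were transib4, S-element and jockey (0.998, 0.998 and 0.996). The correlation was 0.976 between G2 and G6, 0.916 between G2 and G4 and 0.873 between G4 and G6. The loss in siArmi, shared by the elements, enters all of these values, whose median over elements was 0.959 for G2, 0.949 for G4 and 0.966 for G6. Panx-IDR and Gal4 libraries are among the 10, so that a like response to flamenco silencing is part of this choice. The elements nearest to G6 had 23.7% to 27.5% of their Gal4 coverage left and those nearest to G2 had 26.9% to 37.9%. Those nearest to G4 had 87.5% to 116% left.

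Copies of the members are annotated in the reference genome BDGP6 (dm6), which is not the genome of OSCs and differs from it at flamenco. The annotation lists 67 copies, 21 of G2, 31 of G4 and 15 of G6. Of these 2, 4 and 9 have a genomic extent of at least 90% of their consensus length. The longest extents, 5380 nt for G4 and 4435 nt for G6, exceed the consensus, so these counts do not show that the copies are complete. A total of 22 copies lie inside an annotated gene and none of these touches an annotated exon of a coding or non-coding gene. The flamenco transcript lncRNA:flam is annotated on chromosome X at 21631891 to 21790731 on the plus strand. Within it lies 1 member copy, of G6, at X 21711343 to 21715777 on the minus strand, hence antisense to the transcript and outside its annotated exons. Between the end of lncRNA:flam and the gene CG14621 (X 22444227 to 22447808) lie 3 more, all on the minus strand. They are a G6 copy at X 21954524 to 21956564, a G4 copy of 310 nt at X 22403918 to 22404227 and a G2 copy of 1751 nt at X 22423986 to 22425736. In OSCs the authors found piRNA loss on flamenco silencing well beyond the length of this annotated transcript, so its end does not bound the cluster. No coverage was assigned to single copies, since the coverage tables refer to consensus sequences and carry no genome coordinates.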

How the data were processed

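Argonaute-bound small RNAs of 10 OSC libraries were analysed (3 siLuc, 3 siArmi, 2 Gal4, 2 Panx-IDR). The authors trimmed adaptors (cutadapt per the submitters' processing notes), retained reads 24 to 35 nt long, mapped these with bowtie at up to 2 mismatches to consensus sequences based on RepBase, and kept those that map to 1 consensus at no more than 2 places, each weighted 0.5. Reads shared between elements are thus lost, which can lower elements of similar sequence. They deposited coverage signal per position and strand, scaled to 1000000 miRNA reads, with antisense coverage stored as negative values of which the size was used here.

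Mean coverage per nt by element, strand and library was compared on log2(value + 1) with limma 3.58.1 in R 4.3.3 (trend on the level, elements with a mean of at least 10, two-sided, Benjamini-Hochberg over all elements, threshold 0.05). Coverage is not a read count, so no count model was used. Members below the filter were read from a fit without it, an alternative added after seeing the data, as were the sense windows, the 3 parts of an element, the blocks and the gap run. Windows were 100 nt. Nothing in the labels says that libraries of 1 group came from separate cultures, so p-values refer to the spread between these libraries. For most tests limma took that spread as shared over elements. Between the Panx-IDR libraries it also holds the difference between day 6 and day 7. Read numbers cover counting error only and are given as lower limits from coverage divided by the longest read. The test was tested on simulated data. The members and lists were chosen with earlier results of these data known. The named LINEs are the 2 largest decreases and rises past the threshold in a list by name, and similar elements are the 3 highest correlations. Python 3.11.15, numpy 2.4.6, pandas 2.3.3, scipy 1.17.1 and matplotlib 3.10.9 were used. Alternatives were other pseudocounts, no filter, no trend, the median over positions, both scalings, a replicate block, 1 fit for all libraries, 200-nt windows, other gap limits and each library left out in turn. Copies in the genome were read from the Ensembl annotation of BDGP6. Sequences of the elements were not used here.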

Additional observations from a re-analysis of the deposited data

How the results depend on the processing

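The antisense decrease of G6 and G2 on flamenco silencing and of all members on Armi depletion kept their direction and call under the other pseudocounts, no trend and each library left out. Scaled to total transposon coverage, the Armi change of G4 was 0.138 and of G6 0.0814 (antisense), and that of G2 1.07 and G6 0.21 (sense). With median-ratio scaling these were 0.113, 0.148, 0.753 and 0.0553. Antisense elements were then 22 lower and 10 higher (total) or 20 and 14 (median ratio), and sense elements 11 and 3 or 9 and 8. The flamenco change of G4 became 0.80 and 0.72 (antisense, 31 and 29 elements higher). Scaled to the total, the flamenco sense change was 0.41 for G2, -0.27 for G4 and -0.21 for G6, with 7 elements lower and 29 higher. The difference of the treatments became -0.42 (G2) and -1.35 (G6) with the total, with 27 elements lower and 15 higher, and -0.97 and -1.01 with the median ratio, with 20 and 23. For G4 this difference remained positive, at 0.67 and 0.37. A pseudocount of 10 gave -0.20 for G2. A pseudocount of 0.1 gave 0.46 for the Armi strand ratio of G4 and -0.73 for the flamenco strand ratio of G6.

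The median over positions, which is near 0 for elements of low coverage, gave antisense flamenco changes of -2.76 (G2, not called) and -0.14 (G4) with 22 elements lower and 3 higher, and sense changes of 1.46 (G4) and 0.00 (G6) with 5 lower and 7 higher. For G6 the Armi sense change was then 0.00. The flamenco strand ratio was -2.56 (G2, not called) and -1.61 (G4) with 17 and 5 elements called, the treatment difference of G2 was 0.58, and the siLuc antisense share was 60.4% (G2), 84.2% (G4) and 100% (G6). Without a filter, elements called were 80 for the siLuc strand, 120 and 119 lower for Armi antisense and sense, 73 lower and 36 higher for the Armi strand ratio, and 115 higher for the treatment difference. In 1 fit of all libraries the Armi sense change of G6 was -0.22 with a limma adjusted p of 0.0509. Gap limits of 5% and 20% of the mean gave 2.62% and 14.9% of positions for G2, 9.72% and 19.4% for G4, and 9.57% and 13.0% for G6. With 200-nt windows 100% of the tested windows of G2 and 0% of those of G4 were lower on flamenco silencing.

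With 1 library left out, the antisense flamenco change of G4 was -0.0582 to 0.259 and the sense change of G6 was -0.80 to -0.35. In these fits a lone library of a pair is assumed to vary like the others. The labels do not say whether the replicate numbers of siLuc and siArmi pair the libraries. Same-numbered deviations had correlations of -0.083, 0.021 and 0.232 over 50 elements. Those of unlike numbers ran from -0.342 to 0.277, so these few values cannot decide it. The replicate block gave -4.26 for G6 and 50 elements lower, and changed no call of a member. The 2 libraries a group and 87066 to 151205 miRNA reads of the tethering line limit single windows of G2 and G4, and G6 sense coverage at no more than 29 reads a library.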
